A study of Rattus norvegicus with 13 samples.

Results

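The 36 genes described here encode the machinery of macroautophagy and mitophagy and the main membrane proteins and cathepsins of the lysosome. They were taken by name from a list that was chosen with earlier results of these data known. All 36 are listed in every count table of the series, out of 41182 names in any table. The 13 libraries are bulk RNA-seq of rat hearts. Hearts of the sonogenetic group (ST) carried AAV2/9-cTnT-MscL-G22S-mCherry, an adeno-associated virus in which the cardiac troponin T promoter, active in heart muscle cells, drives mCherry, a red fluorescent protein, and MscL-G22S, an ion channel of bacteria that opens when the membrane is stretched, here in a mutated form. WT hearts are labelled with no treatment, so the virus and the transgene cannot be told apart. There were 2 ST and 2 WT hearts at 2 months, 3 ST and 3 WT hearts at 6 months, and 3 ST hearts at 8 months without a WT group of that time. The labels do not say whether the months are age or time since the virus, nor whether ultrasound was given.

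Macroautophagy encloses cytoplasm, aggregated protein or whole organelles in a double membrane, the autophagosome, and delivers them to the lysosome for digestion. A kinase complex around ULK1 starts the process, a lipid kinase complex with Beclin 1 marks the site, and a conjugation system couples proteins of the ATG8 family to the growing membrane, where receptors tether their cargo. The heart, whose muscle cells divide little, relies on this route and on mitophagy, its form directed at mitochondria, to clear damaged protein and mitochondria. Much of its control lies in phosphorylation and protein turnover, and messenger RNA levels do not measure the flux of cargo.

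The transcription factors TFEB and TFE3 bind the CLEAR motif, whose core is TCACGTGA, in many lysosome and autophagy genes, and the wider E-box CACGTG is bound by several other factors. Both motifs read the same on both strands, and CACGTG lies within TCACGTGA. RefSeq promoter windows of the rat assembly GRCr8, from 250 bases before to 50 bases after a gene's start, matched 29 of the 36 genes. TCACGTGA was found in 3 of these 29 genes, Atg3, Lamp1 and Ctsd, and in 0.777% of the 33469 promoters in the table. CACGTG was found in 7 of the 29, against 6.42% of all promoters. A match describes letters only. The windows of the 3 genes with the CLEAR core are printed below, followed by those of Ulk1 and Atg14, which had the largest differences between ST and WT hearts at 6 months. All are 5′ to 3′ on the strand of the gene, with CACGTG or TCACGTGA in capitals: Lamp1 at chr16:83075014-83075313 (minus strand), Ctsd at chr1:206968772-206969071 (minus), Atg3 at chr11:69159231-69159530 (minus), Ulk1 at chr12:51511242-51511541 (plus) and Atg14 at chr15:23306766-23307065 (minus).
Lamp1: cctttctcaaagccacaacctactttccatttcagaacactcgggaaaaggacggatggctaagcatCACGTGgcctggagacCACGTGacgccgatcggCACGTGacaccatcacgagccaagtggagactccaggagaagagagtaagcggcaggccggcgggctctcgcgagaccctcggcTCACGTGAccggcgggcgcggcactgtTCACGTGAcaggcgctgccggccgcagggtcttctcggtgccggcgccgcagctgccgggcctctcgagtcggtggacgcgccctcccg
Ctsd: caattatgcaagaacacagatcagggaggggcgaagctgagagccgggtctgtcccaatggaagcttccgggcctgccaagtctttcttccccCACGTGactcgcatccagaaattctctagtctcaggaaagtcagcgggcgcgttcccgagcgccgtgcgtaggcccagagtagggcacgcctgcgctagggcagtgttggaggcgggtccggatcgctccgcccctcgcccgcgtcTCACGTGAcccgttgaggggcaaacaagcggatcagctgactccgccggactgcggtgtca
Atg3: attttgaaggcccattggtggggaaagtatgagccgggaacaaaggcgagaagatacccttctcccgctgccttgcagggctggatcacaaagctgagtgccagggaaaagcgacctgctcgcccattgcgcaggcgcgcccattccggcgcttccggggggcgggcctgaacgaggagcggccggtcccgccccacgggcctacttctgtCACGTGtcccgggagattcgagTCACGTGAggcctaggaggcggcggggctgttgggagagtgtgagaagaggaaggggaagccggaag
Ulk1: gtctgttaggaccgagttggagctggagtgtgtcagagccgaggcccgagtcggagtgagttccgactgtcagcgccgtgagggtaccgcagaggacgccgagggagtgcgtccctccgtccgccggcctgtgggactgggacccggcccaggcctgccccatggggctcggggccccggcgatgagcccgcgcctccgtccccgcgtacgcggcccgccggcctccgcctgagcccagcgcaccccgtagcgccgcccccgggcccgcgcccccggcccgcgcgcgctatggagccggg
Atg14: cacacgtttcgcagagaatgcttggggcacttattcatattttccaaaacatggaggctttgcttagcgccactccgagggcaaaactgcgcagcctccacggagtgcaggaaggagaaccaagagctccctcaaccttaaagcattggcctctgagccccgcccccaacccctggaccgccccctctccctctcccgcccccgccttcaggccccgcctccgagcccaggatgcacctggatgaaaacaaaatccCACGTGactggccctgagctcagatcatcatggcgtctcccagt
The Lamp1 window held 5 copies of CACGTG, 2 of them as TCACGTGA, while the Ulk1 window held 0 copies of either and the Atg14 window held 1 CACGTG.

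Library totals ran from 4.70 to 11.3 M counts, and each of the 36 genes had a count in every library. Levels are given in CPM (counts scaled to a common library size) with TMM factors, taken separately for the hearts of 2 months and jointly for those of 6 and 8 months. The 2-month levels are not compared with later ones, because the 2 kinds of table list different names. MscL-G22S had 127 and 94 counts in ST libraries of 2 months and 610 to 1667 counts in those of 6 and 8 months, against 0 in every WT library, where a count of 0 allows up to 0.459 CPM. Summed levels of 7 cardiomyocyte markers were 99782 to 101578 CPM in ST hearts of 8 months. They were 84604 to 90414 CPM in ST hearts and 93136 to 99793 CPM in WT hearts of 6 months. The largest part of these sums is Myh6, with means of 39031 CPM in ST hearts and 53941 CPM in WT hearts of 6 months. Gene by gene, 2 of the 7 markers were higher and 1 lower in ST than in WT hearts of 6 months, with 5 above 0. Summed levels of T and B cell markers stayed at or below 2.01 CPM in each library. At 6 months 1 ST library (replicate 2) and 1 WT library (replicate 1) stood apart from the others of their group, with a chi-square per degree of freedom of 6.89 to 8.67 against them, where the remaining pairs had 1.93 and 2.13. That ST library had 767 counts of MscL-G22S, against 1321 and 1667 in the other ST libraries of 6 months. Scaled by library total, these were 90.4 CPM against 197 and 209 CPM. At 2 months the ST pair had a chi-square per degree of freedom of 12.1 and the WT pair 7.68, so those replicates lay far apart too. Erythroid markers were higher in ST hearts of 6 months for 5 of 5 genes, with summed levels of 672 to 747 CPM in ST hearts and 373 to 496 CPM in WT hearts. In the same comparison 3 of 6 fibroblast markers were lower and 2 higher, with sums of 877 to 944 CPM in ST hearts and 1056 to 1118 CPM in WT hearts, and 3 of 6 smooth muscle and pericyte markers were higher and 0 lower, with sums of 291 to 432 CPM in ST hearts and 226 to 306 CPM in WT hearts. The part of these cell types in the results was not tested. In bulk tissue, fewer cells of a type and less RNA per cell cannot be told apart. All adjusted p-values are from edgeR's quasi-likelihood test with Benjamini-Hochberg adjustment over all genes tested, and a gene is said to have changed where that value is under 0.05.

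At 6 months the kinase gene Ulk1 and the lipid kinase subunit gene Atg14 were lower in ST than in WT hearts, while several cargo receptors and ATG8 genes were higher. Of the 36 genes, 6 were higher and 4 lower in ST hearts, so 27.8% passed the threshold, against 40.0% of all 13253 genes tested (19.9% higher and 20.1% lower). The share of the 36 genes was thus below that of all genes. Their median log2 fold change was 0.04 and that of all genes was 0.00. Their median absolute log2 fold change was 0.13, against 0.27 over all genes, and 2 of the 36, Ulk1 and Atg14, differed by over 1.5-fold. The libraries of the groups did not overlap for 15 of the 36 genes, against 51.7% of all genes. The share of genes past the threshold is plotted for the 4 comparisons. Without the ST and the WT library that stood apart, an alternative chosen after seeing the data, 11 genes were higher and 3 lower, and 8 of the 10 calls remained, with Becn1, Wipi1, Gabarapl2, Pink1, Tecpr1 and Ctsd now higher too. Scaling by library size alone, which moved the median of all genes to -0.12, gave 2 higher and 9 lower among the 36 and 1731 higher and 3714 lower among all genes.

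**Figure D1:**
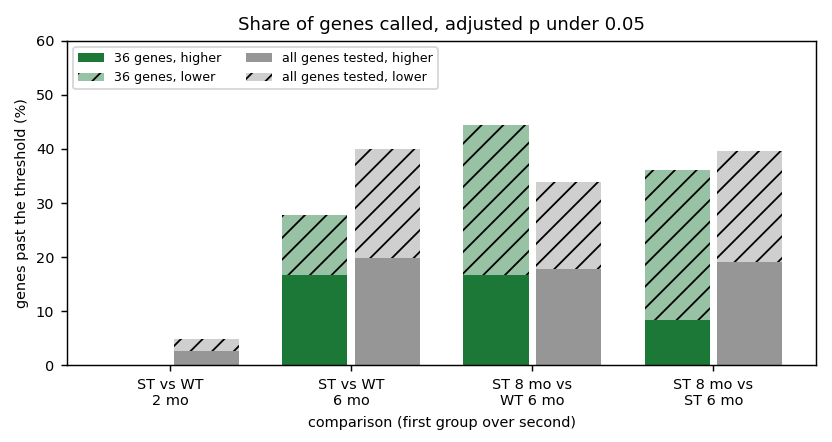
Share of genes past an adjusted p of 0.05 in 4 comparisons (vertical axis, percent), for the 36 genes (green) and for all genes tested (grey), split into higher (plain) and lower (hatched). At 2 months 0 of the 36 genes passed, and at 6 months 27.8% of them passed against 40.0% of all genes.

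Among the initiation genes, Ulk1, the kinase that starts autophagosome formation, had 58.5, 66.0 and 68.1 CPM in ST hearts of 6 months, against 128, 114 and 106 CPM in WT hearts of 6 months. All 3 ST libraries lay below all WT libraries. The log2 fold change was -0.85 (SE 0.0866, adjusted p = 1.46e-05), which left 0.556 of the WT level, and the call held in all 15 alternatives. Rb1cc1, which encodes FIP200, the scaffold of the ULK1 complex, was lower by a smaller amount, at -0.22 (SE 0.0776, adjusted p = 0.0413). Its 3 ST values ran from 59.5 to 62.1 CPM, against 64.99 to 76.2 CPM in WT hearts. That call was lost without any 1 of the WT libraries of replicates 1 and 2 or the ST libraries of replicates 1, 2 and 3, with adjusted p of 0.0564 to 0.132. In all it was lost in 8 of 15 alternatives, among them also DESeq2 and no filter. Ulk2, the relative of Ulk1, was at 0.04 and the adaptor gene Atg13 at -0.07, and neither passed.

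Atg14 encodes the subunit that directs the Beclin 1 lipid kinase to the site of autophagosome formation. It had 9.58, 10.3 and 8.25 CPM in ST hearts of 6 months and 16.3, 15.6 and 16.2 CPM in WT hearts of 6 months, with no overlap. The log2 fold change was -0.76 (SE 0.125, adjusted p = 0.000531), and it passed in all 15 alternatives. Becn1, the gene of Beclin 1 itself, was at 0.22 (adjusted p = 0.0576), and Uvrag, which takes the place of Atg14 in the later complex, was at 0.02. Of the genes that bring and bind membrane, Wipi2, whose protein reads the lipid made by that kinase, had 17.0, 18.8 and 17.6 CPM in ST hearts against 22.03, 21.8 and 23.7 CPM in WT hearts. Its log2 fold change was -0.33 (SE 0.100, adjusted p = 0.0205). It no longer passed without WT replicate 3 (0.0733), ST replicate 1 (0.0699) or ST replicate 3 (0.0631), nor with DESeq2 (0.111). Wipi1 (0.10) and Atg9a (-0.13), a membrane protein carried by vesicles to the forming autophagosome, did not pass, though Atg9a was lower under scaling by library size alone.

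None of the 5 conjugation genes passed at 6 months, among them Atg7 (0.15), the activating enzyme, and Atg12 (-0.24, adjusted p = 0.0579), the ubiquitin-like protein that is joined to Atg5, which was lower under scaling by library size alone, with the filter of 5 CPM and with the replicate block. Among the 5 genes of the ATG8 family, which coat the autophagosome membrane, 2 were higher and 0 lower. Gabarapl1 had 141, 129 and 145 CPM in ST hearts against 99.7, 106 and 97.8 CPM in WT hearts, so that every ST library was above every WT library. Its log2 fold change was 0.45 (SE 0.0716, adjusted p = 0.000404) and passed in all 15 alternatives. Gabarap was at 0.19 (adjusted p = 0.0461) and lost its call in 10 of 15 alternatives, among them the leaving out of any 1 library but ST replicate 2 (adjusted p of 0.0652 to 0.157). Gabarapl2, Map1lc3a and Map1lc3b had log2 fold changes of 0.14, 0.05 and 0.05 that did not pass. Under scaling by library size alone, Gabarapl1 was the 1 ATG8 gene still higher.

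Of the 4 receptor genes for ubiquitin-tagged cargo, 3 were higher in ST hearts at 6 months. Optn, the gene of optineurin, had 298, 249 and 277 CPM in ST hearts and 212, 223 and 220.4 CPM in WT hearts, and was higher by 0.33 (SE 0.0754, adjusted p = 0.00419). Sqstm1, the gene of p62, which is itself consumed with its cargo, had 411, 368 and 434 CPM in ST hearts and 327, 359 and 319 CPM in WT hearts. The lowest ST value of Sqstm1 lay only just above the highest WT value. Its difference was 0.28 (SE 0.0787, adjusted p = 0.0152), and it fell short without WT replicate 3 (0.068), ST replicate 1 (0.0527) or ST replicate 3 (0.0721). Tax1bp1, a further receptor, had 203, 205 and 193 CPM in ST hearts against 174, 169 and 163 CPM in WT hearts, a log2 fold change of 0.25 (SE 0.0630, adjusted p = 0.00772). Nbr1 was at -0.09 and did not pass. Scaled by library size alone, Optn was the 1 receptor gene that was still higher (0.22), and Nbr1 was then lower.

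None of the 4 mitophagy genes passed at 6 months. Under scaling by library size alone Fundc1 was lower, and without WT replicate 1, or without it and ST replicate 2, Pink1 was higher. Bnip3, Bnip3l and Fundc1, receptors on the outer mitochondrial membrane, had log2 fold changes of 0.02, -0.05 and -0.16, and Pink1, the kinase that builds up on damaged mitochondria, was at 0.15 (adjusted p = 0.0872). Tecpr1, which helps join autophagosomes to lysosomes, was at 0.23 with ST values of 72.6, 47.3 and 65.1 CPM that spanned the WT values of 53.1, 51.2 and 53.0 CPM. The regulators Tfeb (-0.15) and Tfe3 (-0.02) did not pass either. Of the 5 lysosome genes, Ctsl, the gene of the protease cathepsin L, was higher, at 259.9, 243 and 264 CPM in ST hearts against 203, 214 and 218 CPM in WT hearts (0.27, SE 0.0666, adjusted p = 0.00655). Lamp1 (0.09), Lamp2 (-0.08), Ctsb (0.09) and Ctsd (0.09) did not pass. The call of Ctsl, like that of Tax1bp1, was lost in 1 of 15 alternatives, the scaling by library size alone (adjusted p = 0.0671 for Ctsl and 0.11 for Tax1bp1), under which Lamp2 was lower.

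**Figure D2:**
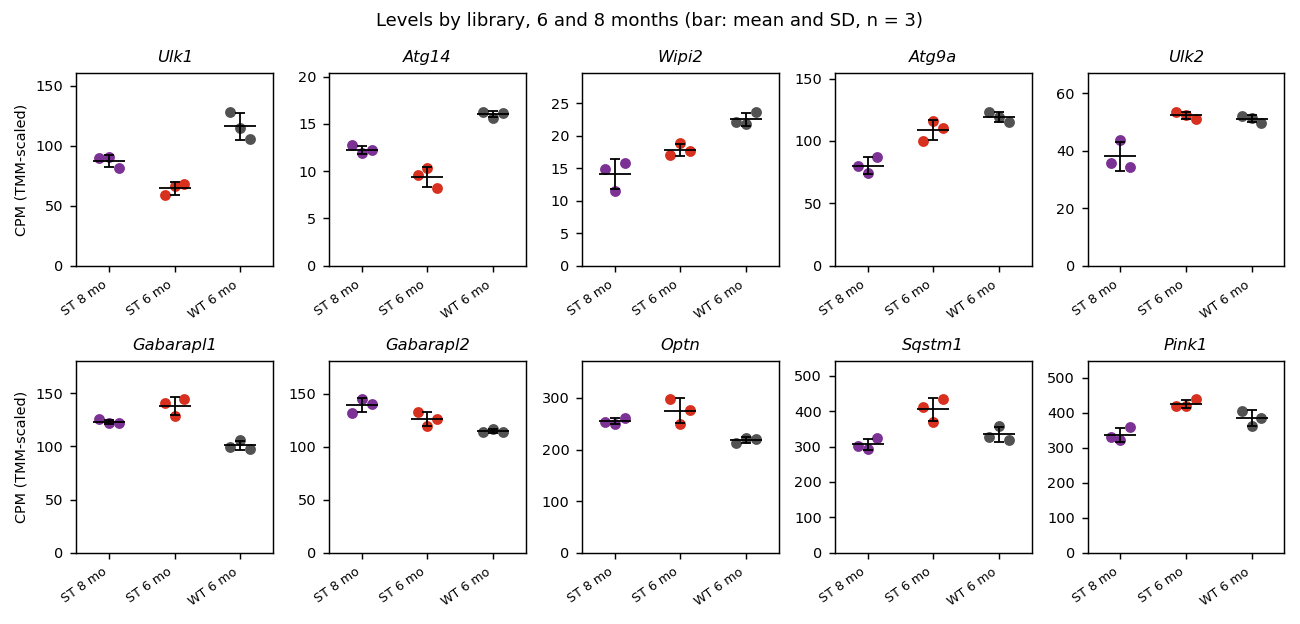
Levels (CPM, vertical axes from 0) of 10 genes in single libraries of ST hearts of 8 months, ST hearts of 6 months and WT hearts of 6 months (points), with mean and SD (bars, n = 3). Ulk1 lies at 81.1 to 90.0 CPM in ST hearts of 8 months, at 58.5 to 68.1 CPM in ST hearts of 6 months and at 106 to 128 CPM in WT hearts of 6 months.

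In ST hearts of 8 months, compared with ST hearts of 6 months, Ulk1 and 2 further genes were higher, while 10 genes from several steps of the pathway were lower, among them Ulk2, Atg13, Atg9a, Sqstm1 and Pink1. The 13 calls make 36.1% of the 36 genes, against 39.6% of all 12931 genes tested (19.1% higher and 20.5% lower), so the share as such was near that of all genes. The median log2 fold change of the 36 genes was -0.11 and that of all genes 0.02, and 8 of the 36 lay above 0, against 51.8% of all genes. The libraries did not overlap for 17 of the 36 genes, against 51.0% of all genes. Each time point has a table of its own, so time and table cannot be told apart here. Scaled by library size alone, 5 of the 36 were higher and 6 lower, and all genes counted 3072 higher and 2140 lower. The median of the 36 was then -0.05, with 15 above 0. Without ST replicate 2 of 6 months, 3 were higher and 13 lower.

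Ulk2 had 35.8, 43.9 and 34.4 CPM in ST hearts of 8 months, against 53.6, 52.3 and 51.0 CPM in ST hearts of 6 months. This was a log2 fold change of -0.46 (SE 0.0965, adjusted p = 0.00231). Atg13 had 46.0, 49.0 and 50.02 CPM in ST hearts of 8 months and 59.6, 62.8 and 64.9 CPM in ST hearts of 6 months, a change of -0.37 (SE 0.0762, adjusted p = 0.00201). Ulk1 went the other way within the same complex, with 89.6, 90.0 and 81.1 CPM in ST hearts of 8 months against the 58.5 to 68.1 CPM at 6 months. Its change was 0.43 (SE 0.0808, adjusted p = 0.00107). Atg14 was likewise at 0.38, with 12.7, 11.9 and 12.2 CPM at 8 months, but at an adjusted p of 0.0548 it did not pass. All 3 calls of Ulk2, Atg13 and Ulk1 held in all 14 alternatives.

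Atg9a had 79.7, 73.8 and 87.1 CPM in ST hearts of 8 months and 100.2, 116 and 111 CPM in ST hearts of 6 months (-0.45, SE 0.0809, adjusted p = 0.000860). Sqstm1 had 301, 294 and 323 CPM in ST hearts of 8 months, below all of its values at 6 months, and fell by 0.41 on the log2 scale (SE 0.0686, adjusted p = 0.000505). Pink1 had 331, 321 and 359.9 CPM in ST hearts of 8 months against 419, 418 and 439 CPM in ST hearts of 6 months, a change of -0.34 (SE 0.0603, adjusted p = 0.000756). The calls of Atg9a, Sqstm1 and Pink1 held in all 14 alternatives. Bnip3 was lower, with 215, 219 and 233 CPM at 8 months against 246, 246 and 296 CPM at 6 months (-0.24, adjusted p = 0.0248), while its relative Bnip3l was higher (0.22, adjusted p = 0.0224). Atg12 was higher (0.23, adjusted p = 0.0449), with 47.3, 48.8 and 46.9 CPM at 8 months and 43.9, 37.4 and 40.9 CPM at 6 months, but kept its call in only 6 of 14 alternatives.

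Of the 5 lysosome genes, 3 were lower in ST hearts of 8 months than of 6 months and 0 higher, and under scaling by library size alone 1, Ctsb, was lower. Ctsb, the gene of the protease cathepsin B, was at -0.22 (adjusted p = 0.00802) with 353, 337 and 362 CPM in ST hearts of 8 months and 401, 419 and 403 CPM in ST hearts of 6 months, and passed in all 14 alternatives. Ctsd, the gene of cathepsin D, was at -0.21 (adjusted p = 0.0394) and overlapped between the groups, with 326 to 399 CPM against 387 to 429 CPM. Lamp1, a main protein of the lysosome membrane, was at -0.17 (adjusted p = 0.0332). Ctsd and Lamp1 each lost their call without ST replicate 3 of 6 months or ST replicate 1 or 2 of 8 months, Ctsd also without ST replicate 1 of 6 months and Lamp1 without ST replicate 3 of 8 months (adjusted p of 0.0536 to 0.184), and both lost it under scaling by library size alone. The small decrease of the ATG8 gene Map1lc3a (-0.22, adjusted p = 0.0149) was lost without ST replicate 3 of 6 months (0.0512) or ST replicate 2 of 8 months (0.0805), and under scaling by library size alone (0.0576). Bnip3l lost its call without either of those libraries (0.0908 and 0.105), with no filter (0.0679) and with DESeq2 (0.0919). Bnip3 lost its call without either of them (0.110 and 0.0827), without ST replicate 1 of 8 months (0.0822) and under scaling by library size alone (0.0735). Leaving out ST replicate 3 of 6 months or ST replicate 2 of 8 months left 7 of the 13 calls each.

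Other quantities moved with these 8-month results. Macrophage and monocyte markers were lower in ST hearts of 8 months for 5 of 12 genes against ST hearts of 6 months and for 6 of 12 against WT hearts of 6 months. Their summed level was 134 to 145 CPM in ST hearts of 8 months, 169 to 228 CPM in ST hearts of 6 months and 171 to 221 CPM in WT hearts of 6 months, with 0 markers at 0 in any group. Endothelial markers were higher for 3 of 6 genes and lower for 0 against either group, with sums of 1126 to 1192 CPM in ST hearts of 8 months, 911 to 1008 CPM in ST hearts of 6 months and 803 to 1007 CPM in WT hearts of 6 months. Of the 7 cardiomyocyte markers, 4 were higher and 1 lower against ST hearts of 6 months, and 4 were higher and 2 lower against WT hearts of 6 months. Of 54 genes with very long messenger RNAs, a list chosen after seeing the data, 28 were lower and 4 higher in ST hearts of 8 than of 6 months (median -0.30), and 32 were lower and 2 higher than in WT hearts (median -0.26). Of 107 genes of ribosomal proteins and mitochondrial complex I, which have short messenger RNAs, 76 were higher and 2 lower (median 0.27) and, against WT hearts, 87 were higher and 0 lower (median 0.38). The part of these cell types and of RNA length in the results for the 36 genes was not tested. The clock gene Dbp had 63.3 to 71.6 CPM in ST hearts of 8 months and 26.6 to 28.7 CPM in those of 6 months. In WT hearts of 6 months it had 211 to 221 CPM, the same order of groups as for Ulk1 and Atg14. At 2 months Dbp was lower in ST than in WT hearts (-0.64, adjusted p = 0.0144). Ulk1 was then at 0.13 and Atg14 at 0.05, and neither passed. The part of Dbp in the results was not tested.

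Against WT hearts of 6 months, the nearest WT group, ST hearts of 8 months had lower levels of all 4 initiation genes and higher levels of 3 of the 5 ATG8 genes. In all, 6 of the 36 genes were higher and 10 lower, which is 44.4%, against 33.9% of all 13095 genes tested (17.8% higher and 16.1% lower). Their median log2 fold change was -0.12 and that of all genes -0.01. The libraries did not overlap for 23 of the 36 genes, against 46.8% of all genes. This comparison uses the same ST libraries as the one above, so the 2 are not independent, and here genotype, time and table all differ between the groups. Scaled by library size alone, 5 were higher and 16 lower.

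Wipi2 had 14.8, 11.5 and 15.8 CPM in ST hearts of 8 months against 22.03, 21.8 and 23.7 CPM in WT hearts of 6 months, at -0.67 the largest difference among the 36 genes in this comparison (SE 0.128, adjusted p = 0.000764). Atg9a, with 79.7, 73.8 and 87.1 CPM in ST hearts of 8 months against 123, 119 and 115 CPM in WT hearts of 6 months, was at -0.56 (SE 0.0735, adjusted p = 2.52e-05). Both membrane genes passed in all 14 alternatives. Among the initiation genes, Atg13 was at -0.43 (SE 0.0949), Ulk2 at -0.41 (SE 0.0964), Ulk1 at -0.41 (SE 0.0792) and Rb1cc1 at -0.32 (SE 0.0832), with adjusted p of 0.00245, 0.00349, 0.000918 and 0.00764. WT hearts of 6 months had 74.4, 65.4 and 57.1 CPM of Atg13, 52.1, 51.5 and 49.7 CPM of Ulk2 and 76.2, 72.4 and 64.99 CPM of Rb1cc1. In ST hearts of 8 months Rb1cc1 had 57.4, 59.7 and 52.9 CPM, and for each of the 4 genes all ST values lay below all WT values. The 4 calls held under both other scalings, and of all alternatives 1 ended a call, that of Rb1cc1 without ST replicate 3 of 8 months (adjusted p = 0.0504).

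Atg14 was lower here too, at -0.38 (SE 0.122, adjusted p = 0.0247), but lost its call without WT replicate 3 of 6 months (0.0625), ST replicate 2 of 8 months (0.0733) or ST replicate 3 of 8 months (0.0661), and with DESeq2 (0.153). Of the ATG8 genes, Gabarapl1 was higher at 0.30 (SE 0.0663, adjusted p = 0.00266), with 126, 122 and 122 CPM in ST hearts of 8 months against 99.7, 106 and 97.8 CPM in WT hearts of 6 months. Gabarapl2 was at 0.29 (adjusted p = 0.00273), with 132, 145 and 141 CPM in ST hearts of 8 months and 114, 116 and 114 CPM in WT hearts of 6 months, and Gabarap at 0.27 (adjusted p = 0.00527). These 3 calls held in all 14 alternatives. Map1lc3a did not pass (-0.15), but was lower under scaling by library size alone and without WT replicate 1 of 6 months.

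Of the remaining genes, Optn (0.23), Tax1bp1 (0.21) and Ctsl (0.22) were higher in ST hearts of 8 months than in WT hearts of 6 months. Lamp2 (-0.24), the second large protein of the lysosome membrane, Fundc1 (-0.28) and Bnip3 (-0.21) were lower. Optn passed in all 14 alternatives. Fundc1 was lost without any 1 of WT replicates 2 and 3 of 6 months and ST replicates 1 and 2 of 8 months (adjusted p of 0.0608 to 0.110) and with DESeq2 (0.112), Bnip3 without WT replicate 2 of 6 months or ST replicate 1 or 2 of 8 months (0.0529 to 0.0981), and Lamp2 without ST replicate 2 or 3 of 8 months (0.0529 and 0.0781). Tax1bp1 was lost without WT replicate 3 of 6 months (0.0749) or ST replicate 2 of 8 months (0.0858) and under scaling by library size alone (0.0879), and Ctsl without ST replicate 1 of 8 months (0.0505).

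**Figure D3:**
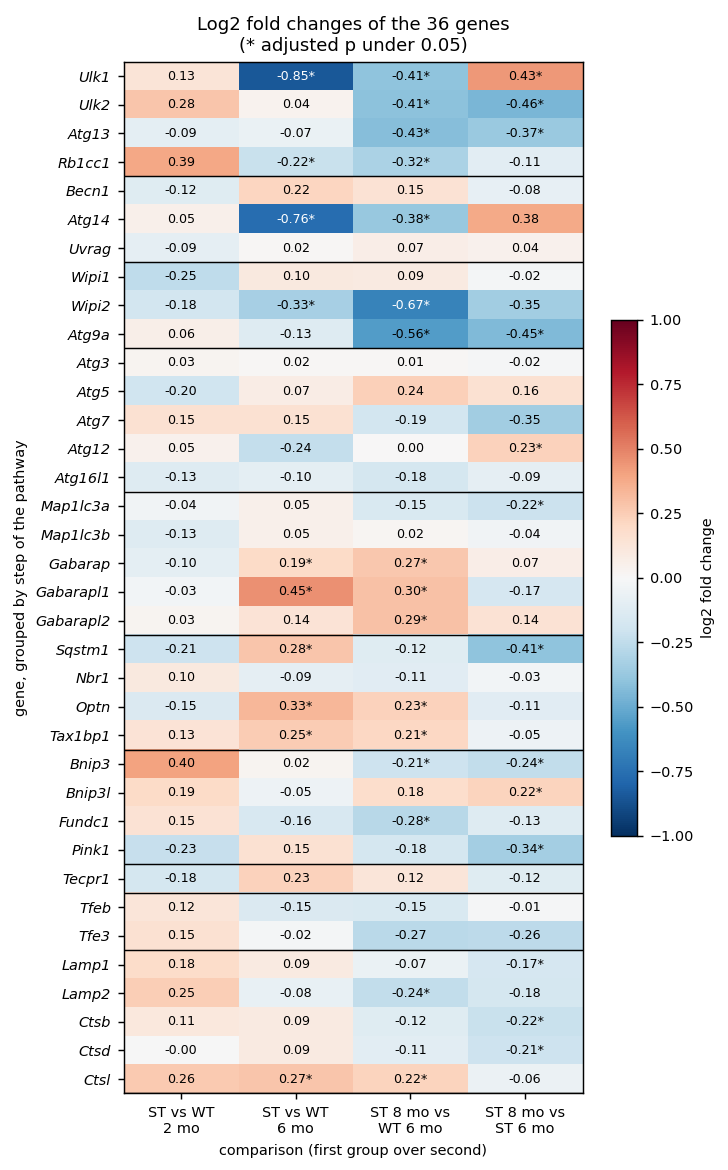
Log2 fold changes (colour and printed values) of the 36 genes (rows, grouped by step of the pathway) in 4 comparisons (columns, first group over second), with stars at an adjusted p under 0.05. The column of 2 months holds 0 stars, and Ulk1 is the 1 gene with a star in each of the other 3 columns.

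At 2 months 0 of the 36 genes were higher and 0 lower in ST than in WT hearts, against 4.80% of all 12121 genes tested (2.70% higher and 2.10% lower). The count was also 0 with DESeq2 and limma-voom. At an unadjusted p under 0.05, 2 of the 36 genes passed, Bnip3 and Rb1cc1. Bnip3 had 202 and 235 CPM in ST hearts against 171 and 161 CPM in WT hearts, a log2 fold change of 0.40 (SE 0.130, adjusted p = 0.0976). Rb1cc1 had 130.5 and 94.0 CPM in ST hearts against 85.0 and 87.2 CPM in WT hearts, at 0.39 (SE 0.150, adjusted p = 0.173). The log2 fold changes of the 36 genes ran from -0.25 for Wipi1 to 0.40 for Bnip3, with a median of 0.04 and 20 above 0. The libraries of the groups did not overlap for 16 of the 36 genes and for 48.9% of all genes. With 2 hearts in each group, leaving out 1 library changed the count. Without ST replicate 2 there were 4 calls, Rb1cc1 and Lamp2 higher and Map1lc3a and Pink1 lower, and without ST replicate 1 there was 1, Bnip3. The ST libraries lay far apart for Map1lc3a, a main autophagosome marker, with 153 and 245 CPM, and for Pink1, with 581 and 766 CPM, where WT hearts had 214 and 194 CPM of Map1lc3a and 770.2 and 808 CPM of Pink1.

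**Figure D4:**
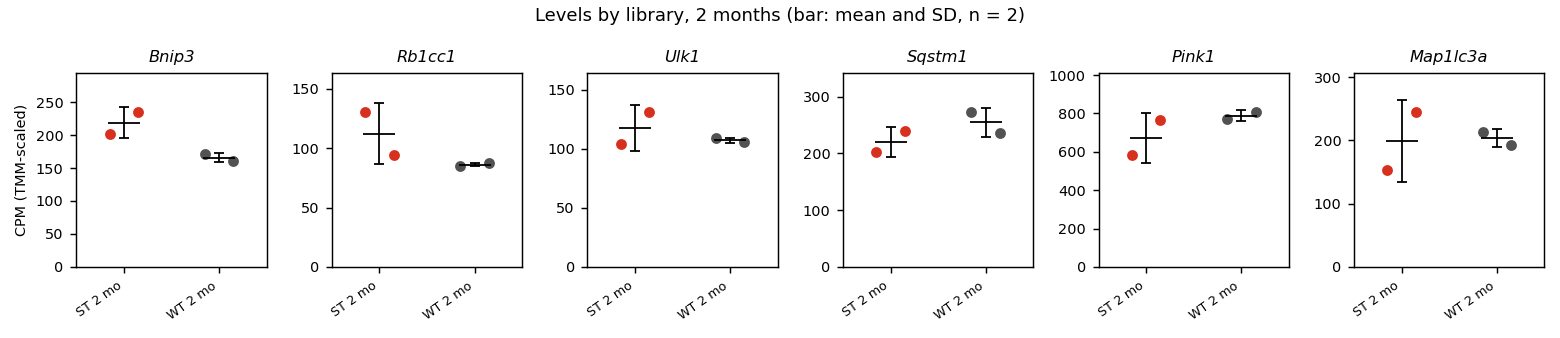
Levels (CPM, vertical axes from 0) of 6 genes in single libraries of ST and WT hearts of 2 months (points), with mean and SD (bars, n = 2). Bnip3 has 202 and 235 CPM in ST hearts against 171 and 161 CPM in WT hearts, while for Map1lc3a the ST libraries lie on both sides of the WT libraries.

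The difference between the ST effects of 6 and 2 months, each taken within its own table, passed for 6 of the 36 genes, 3 higher and 3 lower, which is fewer than the 22.2% of all 12658 genes tested (10.2% higher and 12.0% lower). Ulk1 was at 0.13 in ST against WT hearts of 2 months and at -0.85 at 6 months, and the difference of -0.98 (SE 0.158, adjusted p = 0.000390) passed in all 18 alternatives. At 2 months Ulk1 had 104 and 131 CPM in ST hearts and 109 and 106 CPM in WT hearts. Atg14 differed by -0.82 (SE 0.228, adjusted p = 0.0168) and Rb1cc1 by -0.62 (SE 0.170, adjusted p = 0.0159), the ST effect on Rb1cc1 having been 0.39 at 2 months and -0.22 at 6 months. The 3 differences above 0 belong to Sqstm1 (0.47), Optn (0.47) and Gabarapl1 (0.47), with adjusted p of 0.0301, 0.0219 and 0.0437. In the same test, of 55 genes on the list of very long messenger RNAs, 4 were higher and 11 lower (median -0.16). Of 90 genes of ribosomal proteins and mitochondrial complex I, 14 were higher and 0 lower (median 0.22). The part of RNA length in these differences was not tested.

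Counting the 4 comparisons of groups, 12 of the 36 genes passed in 0 of them, 10 in 1, 13 in 2 and 1, Ulk1, in 3. The comparisons of 6 and 8 months share libraries, so repeated calls of a gene are not independent. The same count was not made over all genes, so these numbers do not show whether the 36 genes differ from others. The 12 genes with 0 calls are Becn1 and Uvrag of the lipid kinase complexes, Wipi1, the conjugation genes Atg3, Atg5, Atg7 and Atg16l1, the ATG8 gene Map1lc3b, the receptor gene Nbr1, Tecpr1, and the regulators Tfeb and Tfe3. Thus Atg12 was the 1 conjugation gene with a call. The log2 fold changes of these 12 genes ran from -0.35 for Atg7 in ST hearts of 8 against 6 months to 0.24 for Atg5 in ST hearts of 8 months against WT hearts of 6 months. Of the 3 genes with the CLEAR core in the printed windows, Atg3 had log2 fold changes of -0.02 to 0.03 in the 4 comparisons, while Lamp1 and Ctsd were each lower in ST hearts of 8 than of 6 months. Atg3 had 35.8 to 39.6 CPM in ST hearts of 8 months, 37.2 to 38.3 CPM in ST hearts of 6 months and 34.9 to 39.9 CPM in WT hearts of 6 months.

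Reads of some of these genes may be shared with near-identical copies. The 2-month table lists Gabarapl3, with 87.7 and 68.4 expected counts in ST libraries and 60.2 and 59.4 in WT libraries, and Map1lc3b2, with 9.43 and 6 in ST libraries and 3.10 and 1.03 in WT libraries, while the later tables list neither. Which genes share reads with these copies, and how many, was not measured. Values of Gabarapl1, Gabarapl2 and Map1lc3b are therefore uncertain by an unknown amount.

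Further genes of the same pathways were taken from lists of autophagy, cargo receptor, fusion, lysosome, vacuolar ATPase and mTORC1 or AMPK genes, of which 115 were tested at 2 months and 116 later. At 6 months 26 were higher and 19 lower in ST hearts (median 0.02), a share near the 40.0% of all genes called. Of the 19 genes of the autophagy list, 4 were higher and 5 lower at 6 months. Under scaling by library size alone, 1 was higher and 9 lower. Rubcn, Nrbf2 and Atg4c were lower and Atg4d higher (adjusted p of 0.00075 to 0.00914). In ST hearts of 8 against 6 months 4 of the 19 were higher and 7 lower, against 39.6% of all genes called. With library size alone, 6 were higher and 2 lower. Against WT hearts, 1 was higher and 4 lower, where 33.9% of all genes were called. The 15 tested subunits of the vacuolar ATPase, the pump that acidifies the lysosome, had 8 higher and 0 lower at 6 months, with a median of 0.27, against 19.9% of all genes higher. Under scaling by library size alone 4 were higher and 0 lower. Without the ST and WT libraries that stood apart, 8 were higher and 0 lower. Atp6v1e1, a subunit of its peripheral part, had 140.2, 137 and 139.8 CPM in ST hearts of 6 months and 100.8, 99.8 and 104 CPM in WT hearts of 6 months (0.46, SE 0.0627, adjusted p = 0.000148). In ST hearts of 8 months against 6 months, 4 of the 15 subunits were lower, Atp6v1e1 (-0.27), Atp6ap2 (-0.56), Atp6v1b2 (-0.29) and Atp6ap1 (-0.26), and 1 higher, Atp6v1d (0.26), where 20.5% of all genes were lower. Against WT hearts of 6 months, ST hearts of 8 months had 5 subunits higher and 0 lower, where 17.8% of all genes were higher.

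Of the 16 other cargo receptor genes tested at 6 months, 7 were higher and 2 lower, where 19.9% of all genes were higher and 20.1% lower. Under scaling by library size alone, 4 were higher and 5 lower. Ncoa4 and Bcl2l13 were among the higher genes and Usp30 among the lower (adjusted p of 0.000483, 0.00197 and 0.000596). Retreg1, which encodes the receptor FAM134B for autophagy of the endoplasmic reticulum, had 345, 364 and 358 CPM in ST hearts of 6 months against 136, 119.8 and 115 CPM in WT hearts of 6 months. This log2 fold change of 1.53 (SE 0.0737, adjusted p = 2.71e-08) was larger in size than that of any of the 36 genes in the 4 comparisons. It was already higher at 2 months, with 259 and 197 CPM in ST hearts and 145 and 136 CPM in WT hearts (0.70, SE 0.144, adjusted p = 0.00825), though not without WT replicate 2 (0.0927). In ST hearts of 8 months it had 179.9, 214 and 199.5 CPM, below ST hearts of 6 months (-0.85) and above WT hearts of 6 months (0.69).

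Of the 26 genes that act around mTORC1 and AMPK, the nutrient and energy sensing kinases upstream of ULK1, 3 were higher and 5 lower at 6 months, a smaller share than the 40.0% of all genes called. Under scaling by library size alone, 2 were higher and 7 lower. Sesn1, which encodes a sestrin that restrains mTORC1, was lower in ST hearts of 6 months, with 94.8, 93.3 and 89.7 CPM against 170.1, 185 and 175 CPM in WT hearts of 6 months (-0.93, SE 0.0674, adjusted p = 9.04e-07). At 2 months it was higher in ST hearts, with 114 and 126 CPM against 73.3 and 83.8 CPM in WT hearts (0.61, SE 0.132, adjusted p = 0.0117), a call lost without either WT library (up to 0.314). Mitf (-0.83), a relative of Tfeb, and Ddit4 (-0.73), a further inhibitor of mTORC1, were lower at 6 months, and Rheb (0.48), its activator, was higher. In ST hearts of 8 against 6 months, 3 of the 26 were higher and 3 lower, against 39.6% of all genes called. Ddit4 (1.11), Mitf (0.70) and Sesn1 were higher, and the mTORC1 scaffold gene Rptor (-0.46), Tsc1 and Akt1s1 were lower. With library size alone, 6 were higher and 2 lower. ST hearts of 8 months had 8 of the 26 higher and 5 lower than WT hearts of 6 months. There 33.9% of all genes were called.

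Of the 26 other lysosome genes, 3 were higher and 4 lower at 6 months (2 and 8 under scaling by library size alone), a smaller share than the 40.0% of all genes called. Among them were the acid glucosidase gene Gaa (0.44) and the membrane protein gene Cd63 (0.57), which were higher, and the protease gene Ctsc (-0.75) and the glucuronidase gene Gusb (-0.82), which were lower. In ST hearts of 8 months, 7 of the 26 were lower and 2 higher than in ST hearts of 6 months, where 20.5% of all genes were lower and 19.1% higher. They include Gaa (-0.74) and the protease genes Ctss (-1.01), Ctsh (-0.57) and Lgmn (-0.40). Cathepsin S, the product of Ctss, is abundant in macrophages. Of the 12 macrophage and monocyte markers, 5 were lower and 0 higher in the same comparison, with 4 above 0. The part of macrophages in the value of Ctss was not tested. Of the 14 other fusion genes, 1 was higher and 3 lower at 6 months, a smaller share than the 40.0% of all genes called. Under scaling by library size alone, 0 were higher and 4 lower. Stx17 (-0.59), a SNARE of the autophagosome, Rilp (-0.44) and Vps11 (-0.28) were lower and Rab7a (0.17) was higher. The call of Vps11 was lost without WT replicate 1, WT replicate 2 or ST replicate 3 (adjusted p of up to 0.0876), and that of Rab7a in 10 of 15 alternatives, among them without any 1 library but WT replicate 1 (adjusted p of up to 0.484 over the alternatives). Epg5, a tethering factor with a long messenger RNA, was at -0.57 in ST hearts of 8 against 6 months. The part of RNA length in this value was not tested.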

How the data were processed

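The deposited values are expected counts per gene name in 3 tables of 1 time point each, with no scaling between samples, as the values show. The counting tool of the authors is not named in the sources used here. The submitters' processing notes list the builds GRCm38 and mm10, which are mouse builds and do not match the rat gene names. For the tests, each expected count was rounded. Only the libraries of a comparison entered its fit in edgeR 4.0.16 (R 4.3.3), after filterByExpr and with TMM scaling, and the quasi-likelihood test was two-sided, with Benjamini-Hochberg adjustment over all genes tested and a threshold of 0.05. Fold changes are log2, first group over second, and their standard error was derived from the fold change and its F statistic. The difference of ST effects was the interaction term over names listed in both kinds of table.

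The titles call the samples biological replicates, and p-values measure the spread between them. Libraries held 4.70 to 11.3 M counts. A count of 0 allows 3 counts, which covers counting error only. No pair of libraries looked like a repeat. Alternatives were RLE size factors, library size only, no filter, 5 CPM, DESeq2 1.42.0, limma-voom (limma 3.58.1), a replicate block, no mitochondrially encoded or haemoglobin genes, and each library left out. The procedure was run on simulated counts with 200 changed genes. That setting had no libraries that stand apart from their group, so it does not show how the tests behave with them.

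The 36 genes and all lists were chosen with earlier results of these data known. The text names all 36 and gives every library value for up to 8 called genes of largest fold change in each comparison. It names up to 4 called genes of smallest p from a further list, though not in every comparison. Genes named beyond that were chosen after their values were seen. Deviations of same-numbered samples correlated weakly, at 0.01 to 0.195 over the comparisons of groups, and not every pair of a comparison passed 0.1, so the numbers were not taken as pairing. Most differently numbered pairs had correlations below 0. Deviations were taken from the group mean, which ties these correlations to those of same-numbered samples, so they decide nothing about pairing. Sequences are from RefSeq. The build behind the counts is unknown, so no gene positions are given besides the promoter windows.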

Additional observations from a re-analysis of the deposited data

Results flagged for a closer look

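Differences between the ST effect at 6 months and at 2 months passed the test of the difference itself for 6 of the 36 genes and for 2 further pathway genes that had passed at 2 months. Ulk1 differed by -0.98, and that call held in all 18 alternatives. Atg14 differed by -0.82 and lost its call with DESeq2 (adjusted p = 0.0562) and without WT replicate 2 of 2 months (0.0733). Rb1cc1 differed by -0.62 and lost its call without WT replicate 1 (0.0693) or ST replicate 1 (0.0849) of 2 months. Sqstm1 differed by 0.47, Optn by 0.47 and Gabarapl1 by 0.47. Of 18 alternatives, 7 ended the call of Sqstm1, 4 that of Optn and 9 that of Gabarapl1, each of them also lost under scaling by library size alone (0.0620, 0.0564 and 0.0851). For Sqstm1 these include leaving out WT replicate 1 (0.173) or ST replicate 1 (0.127) of 2 months, WT replicate 1 (0.0533) or 3 (0.0664) of 6 months, and ST replicate 1 (0.0609) or 3 (0.0782) of 6 months. For Optn they include leaving out WT replicate 1 (0.113) or ST replicate 2 (0.0674) of 2 months, or ST replicate 1 of 6 months (0.0601). The call of Gabarapl1 was lost without any 1 library other than ST replicate 2 of 2 months and ST replicate 2 of 6 months (0.0505 to 0.227). Sesn1 differed by -1.55 and Retreg1 by 0.81, and both calls held in all 18 alternatives.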

How the results depend on the processing

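No alternative turned the direction of a called gene among the 36. Without ST replicate 2 and WT replicate 1 of 6 months, chosen after seeing the data, the 10 calls of 6 months became 14. RLE size factors, no filter, the filter of 5 CPM, DESeq2, limma-voom and leaving out mitochondrially encoded and haemoglobin genes kept the total of calls among the 36 in each comparison within 1.5 times. The split by direction moved more: DESeq2 gave 5 higher and 2 lower at 6 months (6 and 4 with edgeR), and in ST hearts of 8 against 6 months DESeq2 gave 1 higher and 10 lower, no filter 1 and 12, and RLE size factors 2 and 11 (3 and 10 with TMM and the filter). Leaving out 1 library gave 0 to 4 calls at 2 months (1 without ST replicate 1 and 4 without ST replicate 2, against 0), 6 to 11 in ST against WT hearts of 6 months, 7 to 16 in ST hearts of 8 against 6 months, 11 to 18 in ST hearts of 8 months against WT hearts of 6 months, and 2 to 9 for the difference of ST effects. Those of 6 at 6 months were without ST replicate 1 or 3, and those of 2 and 3 for the difference were without WT replicate 1 of 2 months and ST replicate 1 of 6 months. With library size alone the difference of ST effects had 0 higher and 5 lower, where TMM gave 3 higher and 3 lower. Over all genes, calls at 2 months numbered 582, 1019 with no filter, 355 with DESeq2 and 271 to 2013 without 1 library, and those of the difference numbered 2811, and 1558 without WT replicate 1 of 2 months.

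Same-numbered samples share only a number. With a replicate block there were 0 calls at 2 months, 11 at 6 months, 13 in ST hearts of 8 against 6 months, 17 in ST hearts of 8 months against WT hearts of 6 months and 7 for the difference. Depth limits the genes of few counts: in ST hearts of 8 against 6 months Atg7, with 34 counts in its lowest library, had a log2 fold change of -0.35 (SE 0.172) that missed the threshold, while Lamp1, with at least 1668 counts, passed at -0.17 (SE 0.0575). With 2 hearts in each group at 2 months, a call that missed the threshold does not show equal levels.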
